A study of Mus musculus with 15 samples.

Results

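Vascular endothelial growth factors and their receptors were followed in the developing brain of mice carrying a missense mutation of *Tbr1*, the T-box transcription factor of early-born cortical neurons. The family comprised 8 listed genes of the 19475 in the table, namely 5 ligands (*Vegfa*, *Vegfb*, *Vegfc*, *Vegfd* and *Pgf*) and 3 receptors (*Flt1*, *Kdr* and *Flt4*), matched by Ensembl identifier to mouse symbols. All 8 were measured and all 8 passed the minimum mean of 5 normalized counts that was set for testing. The family was chosen by the level of *Vegfd*, which was already known to be higher in homozygous mutants than in WT in these libraries, so the differences of *Vegfd* between genotypes are given as a description, with no test. The other 7 genes completed the family and were tested.

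RNA-Seq was performed on brains at E16.5 (E, embryonic day) from 15 embryos on the C57BL/6J background, with 5 wild-type (WT) embryos, 5 labelled Tbr1 hetero (Tbr1+/K228E) and 5 labelled Tbr1 homo (Tbr1 K228E/K228E). Each genotype held 3 females, which carry replicate numbers 1 to 3, and 2 males, numbers 4 and 5. The mutant allele is a germline knock-in in every cell, and its selection cassette had been removed with a Cre active in the male germ line. The labels give the tissue as brain, the study's text calls the samples brain in places and forebrain in others, and the markers below bear on this. Values are normalized read counts, which are read numbers estimated per gene and divided by a size factor per library, and the values of 5 embryos are always given in the order of their numbers.

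VEGF ligands are secreted dimers that bind receptor tyrosine kinases on endothelial cells. VEGF-A, made by neural progenitors and other parenchymal cells and induced by low oxygen, acts mainly through KDR and drives vessel growth into the neural tube, while FLT1 binds VEGF-A, VEGF-B and placental growth factor and can act as a decoy. VEGF-C and VEGF-D, known above all for lymphatic growth, bind FLT4, and fully cleaved VEGF-C also binds KDR. Both are made as precursors whose ends are removed by proteases, in the case of VEGF-C by ADAMTS3 held by the scaffold protein CCBE1.

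The gene of VEGF-D and the gene of its closest relative VEGF-C were compared at their 5′ ends, because *Vegfd* is the member whose level differed most between the genotypes, and *Adamts3* was added because it is the pathway gene that passed the test below. Each stretch runs from 250 bases before to 50 bases after the annotated start in RefSeq on GRCm38.p6, and capitals mark the letters TATAAA in *Vegfd* and ACGTG in *Adamts3*. *Vegfd* lies on chromosome X (gene 164373378 to 164402650 in GENCODE M21, plus strand), and its stretch is chrX:164373272-164373571 on the plus strand. The GENCODE start differs from the RefSeq start and lies inside this stretch, so distances below hold for the RefSeq starts only. That of *Vegfc* is chr8:54077282-54077581 on the plus strand and that of *Adamts3* is chr5:89883285-89883584 on the minus strand.
Vegfd: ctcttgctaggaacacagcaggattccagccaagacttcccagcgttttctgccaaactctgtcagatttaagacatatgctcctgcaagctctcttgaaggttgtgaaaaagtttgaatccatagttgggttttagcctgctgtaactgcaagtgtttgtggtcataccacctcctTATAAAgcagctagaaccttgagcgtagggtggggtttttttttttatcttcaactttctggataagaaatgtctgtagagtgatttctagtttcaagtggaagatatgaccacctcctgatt
Vegfc: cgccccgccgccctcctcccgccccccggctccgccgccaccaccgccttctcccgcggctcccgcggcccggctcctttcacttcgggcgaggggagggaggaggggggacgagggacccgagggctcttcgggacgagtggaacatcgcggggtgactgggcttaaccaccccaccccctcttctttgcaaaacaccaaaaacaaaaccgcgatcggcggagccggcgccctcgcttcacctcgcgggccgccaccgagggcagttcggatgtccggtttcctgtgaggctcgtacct
Adamts3: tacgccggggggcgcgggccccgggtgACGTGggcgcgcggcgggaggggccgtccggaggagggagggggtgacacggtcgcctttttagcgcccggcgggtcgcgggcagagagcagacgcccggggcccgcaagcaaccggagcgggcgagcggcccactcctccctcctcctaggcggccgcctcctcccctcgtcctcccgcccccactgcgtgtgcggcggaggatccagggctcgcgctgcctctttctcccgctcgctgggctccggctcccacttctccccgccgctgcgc

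The *Vegfd* stretch held 42.0% G and C, against 70.3% for *Vegfc* and 77.3% for *Adamts3*. The other stretches of the family, including a second start for *Vegfa* and for *Pgf*, held 59.3% to 75.3%. Of all promoter stretches of this length in the mouse, 14.9% had a G and C content at or below that of *Vegfd*. TATAAA was searched on both strands, does not overlap the other motifs searched, and occurs in 13.6% of all 32851 stretches. It began 73 bases before the RefSeq start in *Vegfd*, a place within the gene by GENCODE, and 31 bases before the start in *Flt1*. TATAAA was in no other stretch of the family. ACGTG, the core to which hypoxia-inducible factors bind, occurs in 19.6% of all stretches and was found in *Adamts3*, 223 bases before the start, and in 1 of the 2 *Vegfa* stretches. GGTGTGA, the T-box core, occurs in 3.98% of all stretches and in none of the 10 stretches of the 8 genes, which says only that these letters are not in these windows.

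As a check of the labels, *Tbr1* measured 3517, 4122, 4871, 2097 and 3079 normalized counts in WT, 4738, 8543, 6337, 6743 and 4985 in Tbr1+/K228E, and 11530, 7148, 16015, 10671 and 11467 in Tbr1 K228E/K228E. The homozygous embryos did not overlap with WT, and the log2 difference was 1.69 (SE 0.23, limma with Benjamini-Hochberg adjustment, adjusted p = 0.00437). The heterozygous embryos overlapped with both other genotypes, and homozygous minus heterozygous was 0.85 (limma, adjusted p = 0.614). Their labels are therefore not checked by *Tbr1*. The study had already reported the rise in homozygotes from these embryos, so the check is not independent of that result. The knock-in changes 1 codon and leaves the transcript countable, so the level checks the labels only through the rise of the transcript. Column sums were 30535909 to 31768507 normalized counts, after a scaling by size factors that itself brings libraries close to each other. The estimated reads per library ranged from 26200000 to 38000000.

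*Vegfd* was the least abundant ligand in WT and stood higher in every homozygous embryo. It measured 20.1, 18.9, 21.7, 20.5 and 15.5 normalized counts in WT, 30.9, 36.1, 18.8, 17.1 and 15.4 in Tbr1+/K228E, and 73.3, 53.4, 82.7, 57.6 and 62.5 in Tbr1 K228E/K228E. The lowest homozygous embryo lay above the highest embryo of either other genotype, whereas the heterozygous embryos overlapped with WT. The group means were 19.3 ± 2.34 (SD, n = 5), 23.7 ± 9.22 and 65.9 ± 12.0 normalized counts, so that the homozygous mean was 3.41 times the WT mean and 2.78 times the heterozygous mean. On the scale of log2(normalized count + 1), the differences were 1.71 for homozygous minus WT, 1.50 for homozygous minus heterozygous and 0.21 for heterozygous minus WT. These values rest on few reads, an estimated 16.4 to 22.4 per library in WT and 47.8 to 83.5 in the homozygotes. The read numbers are rough, because they come from the spacing of low values. Only 42.6% to 70.4% of those values per library were near whole multiples of 1 read. Over all genes, groups that did not overlap, with the homozygotes higher, made up 0.321% of 16507 genes against WT and 0.491% against Tbr1+/K228E. These shares give the background only, because the gene was chosen for this difference.

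Within the heterozygotes the spread of *Vegfd* was wide. Replicates 1 and 2, both female, stood at 30.9 and 36.1 normalized counts, above every WT embryo, and the other 3 at 15.4 to 18.8, within or just below the WT range. The log2 difference from WT was 0.43 in females and -0.13 in males, with 3 against 3 and 2 against 2 embryos. In the homozygotes it was 1.72 in females and 1.69 in males. *Vegfd* is X-linked, and across the 3 genotypes it was lower in males by 0.36 on the log2 scale without passing the threshold (limma, unadjusted p = 0.0536, Benjamini-Hochberg adjusted p = 0.459).

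**Figure D1:**
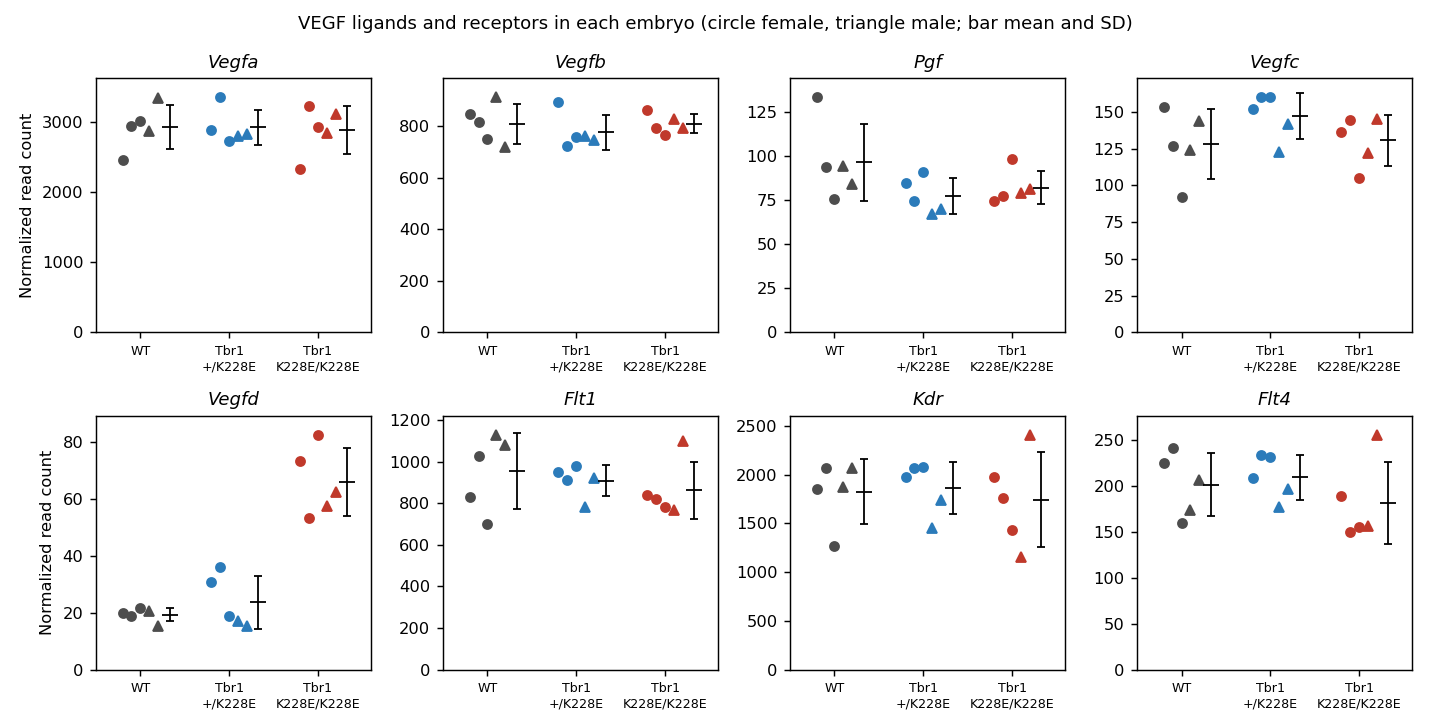
Normalized read counts of the 8 VEGF genes (vertical axes from 0) in each embryo of the 3 genotypes (horizontal axes), with circles for females, triangles for males, and a bar for the mean and SD of 5 embryos. For Vegfd the homozygous embryos, at 53.4 to 82.7, lie above all 10 others, and for the other 7 genes the genotypes overlap.

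Among the other ligands, none of the 4 passed the threshold in any comparison. *Vegfa*, the main angiogenic ligand, measured 2455, 2941, 3012, 2860.5 and 3328 normalized counts in WT, 2880, 3346, 2725, 2801 and 2830 in Tbr1+/K228E, and 2331, 3221, 2916, 2834 and 3105 in Tbr1 K228E/K228E. The ranges of the 3 genotypes overlapped throughout. The log2 difference was -0.02 for homozygous minus WT, with 95% limits of -0.21 and 0.17, which as a fold are 0.863 and 1.13. For heterozygous minus WT it was 0.00, with limits of -0.19 and 0.19.

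*Vegfb*, a ligand of FLT1, measured 846, 817, 750, 912 and 719 normalized counts in WT, 892, 721, 756, 762 and 747 in Tbr1+/K228E, and 862, 792, 767, 827 and 794 in Tbr1 K228E/K228E. All 3 groups overlapped. The homozygous minus WT log2 difference was 0.00 (95% limits -0.15 and 0.15), and the heterozygous minus WT difference was -0.06 (-0.21 and 0.09).

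*Pgf*, placental growth factor, the other ligand of FLT1, measured 133, 93.7, 75.7, 94.1 and 84.1 normalized counts in WT, 84.4, 74.3, 90.8, 66.8 and 70.1 in Tbr1+/K228E, and 74.5, 77.4, 98.1, 78.7 and 81.1 in Tbr1 K228E/K228E. WT replicate 1 was the highest of all 15 embryos, and the groups overlapped. The log2 difference from WT was -0.21 in homozygotes (95% limits -0.53 and 0.11) and -0.29 in heterozygotes (-0.61 and 0.02), the latter with an exact two-sided permutation p = 0.0714 (5 against 5 embryos, for which the smallest possible p is 0.00794).

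*Vegfc*, the relative of *Vegfd*, measured 153, 127, 92.0, 124 and 144 normalized counts in WT, 152, 160, 160, 122 and 142 in Tbr1+/K228E, and 137, 144, 105, 122 and 145 in Tbr1 K228E/K228E. No group stood apart. Its log2 difference was 0.04 for homozygous minus WT (95% limits -0.26 and 0.34), 0.21 for heterozygous minus WT (-0.09 and 0.51) and -0.17 for homozygous minus heterozygous (-0.47 and 0.13).

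The receptors, which are transcribed mainly in endothelial cells, did not pass the threshold either. *Kdr*, the main signalling receptor for VEGF-A, measured 1848, 2069, 1267, 1876 and 2068 normalized counts in WT, 1979, 2067, 2073, 1452 and 1736 in Tbr1+/K228E, and 1975, 1756, 1428, 1152 and 2409 in Tbr1 K228E/K228E. The homozygous embryos held both the lowest and the highest value of the series. The log2 difference for homozygous minus WT was -0.09 (95% limits -0.47 and 0.29), and it turned to 0.05 without the 3 embryos of lowest meningeal markers described below.

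*Flt1*, which encodes the decoy receptor and its soluble form, summed in this table into 1 value, measured 832, 1026, 700.5, 1130 and 1082 normalized counts in WT, 949, 911, 977, 784 and 924 in Tbr1+/K228E, and 838, 822, 783, 767 and 1099 in Tbr1 K228E/K228E. Its log2 difference was -0.14 for homozygous minus WT (95% limits -0.41 and 0.13). *Flt4*, the receptor of VEGF-C and VEGF-D, measured 225, 242, 159, 174 and 207 normalized counts in WT, 208, 234, 232, 177 and 197 in Tbr1+/K228E, and 190, 149.8, 155, 157 and 256 in Tbr1 K228E/K228E. Homozygous replicates 2, 3 and 4 stood below every WT embryo in *Flt4*, and replicate 5 above every WT embryo. Its log2 difference was -0.16 for homozygous minus WT (95% limits -0.49 and 0.17), 0.06 for heterozygous minus WT (-0.26 and 0.39) and -0.23 for homozygous minus heterozygous (-0.56 and 0.10).

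In counts, 0 of these 7 genes passed limma with Benjamini-Hochberg adjustment over the 16507 genes tested. The background was 0.127% of genes for homozygous minus WT, 0% for heterozygous minus WT and 0.0788% for homozygous minus heterozygous. The adjusted p was at least 0.999 for each of the 7 in the comparisons with WT and 0.996 for each in homozygous minus heterozygous. At an unadjusted limma p under 0.05 the count was also 0 in each comparison, where 3.23%, 1.79% and 3.3% of all genes passed. By the exact permutation test the count was 0 as well, where 2.99%, 2.38% and 4.1% of all genes gave a p under 0.05. The WT embryos serve in both comparisons with WT, so these are not independent of each other. No genotype effect differed between the sexes past the threshold for any of the 7. The nearest was *Flt1* in heterozygotes, with log2 differences from WT of 0.17 in females and -0.38 in males (limma interaction, unadjusted p = 0.0306, Benjamini-Hochberg adjusted p = 0.734).

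**Figure D2:**
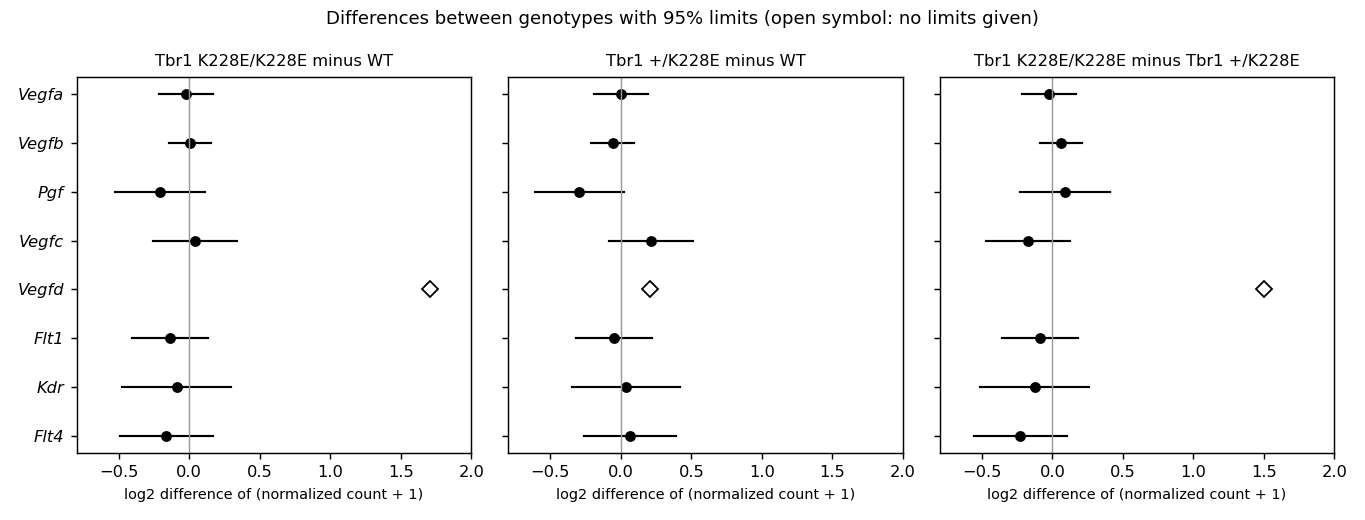
Differences of log2(normalized count + 1) between genotypes (horizontal axes) for each gene (vertical axis) in the 3 comparisons, with points for the estimates and lines for 95% limits from limma. Vegfd, shown without limits because it was chosen for its difference, lies at 1.71 and 1.50 in the comparisons with homozygotes, while the lines of the other 7 genes all cross 0.

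Levels of different genes were compared per length, as normalized counts per kilobase (kb) of merged exon. In WT the order was *Vegfa* at 681 ± 73.3 (SD, n = 5), *Vegfb* at 504 ± 47.9, *Kdr* at 202 ± 36.4, *Flt1* at 70.7 ± 13.4, *Vegfc* at 52.3 ± 9.61, *Pgf* at 33.1 ± 7.58, *Flt4* at 24.5 ± 4.18 and *Vegfd* at 8.03 ± 0.973 normalized counts per kb. Neighbours from *Flt1* to *Flt4* overlapped between embryos, so their order was not resolved, while *Vegfa*, *Vegfb*, *Kdr* and *Vegfd* were each separate from the next. With the longest transcript as length the order was the same, but in WT *Vegfa* then overlapped with *Vegfb*, and *Flt1* was separate from *Vegfc*. Per merged exon, the same order was found in heterozygotes, with *Vegfd* at 9.83 ± 3.83. In homozygotes *Vegfd* reached 27.4 ± 4.97 normalized counts per kb, overlapping with *Pgf* at 28.2 ± 3.21 and *Flt4* at 22.0 ± 5.41, and so moved from the lowest place in the order to one above *Flt4* that was not resolved from either.

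Set against its relative, the *Vegfd* level per kb was 16.0% ± 4.92 of that of *Vegfc* in WT, 16.2% ± 5.34 in heterozygotes and 52.9% ± 16.55 (SD, n = 5 each) in homozygotes. Summed, *Vegfc* and *Vegfd* came to 60.3 ± 9.08 normalized counts per kb in WT, 69.9 ± 9.16 in heterozygotes and 80.7 ± 5.28 in homozygotes. *Vegfd* nonetheless stayed a small share of all 5 ligands per kb, at 0.630% in WT and 2.14% in homozygotes, while *Vegfa* made up 53.2% in WT and 52.2% in homozygotes. The ratio of *Flt1* to *Kdr* per kb was 0.351 ± 0.0384 in WT, 0.329 ± 0.0282 in heterozygotes and 0.343 ± 0.0649 in homozygotes.

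**Figure D3:**
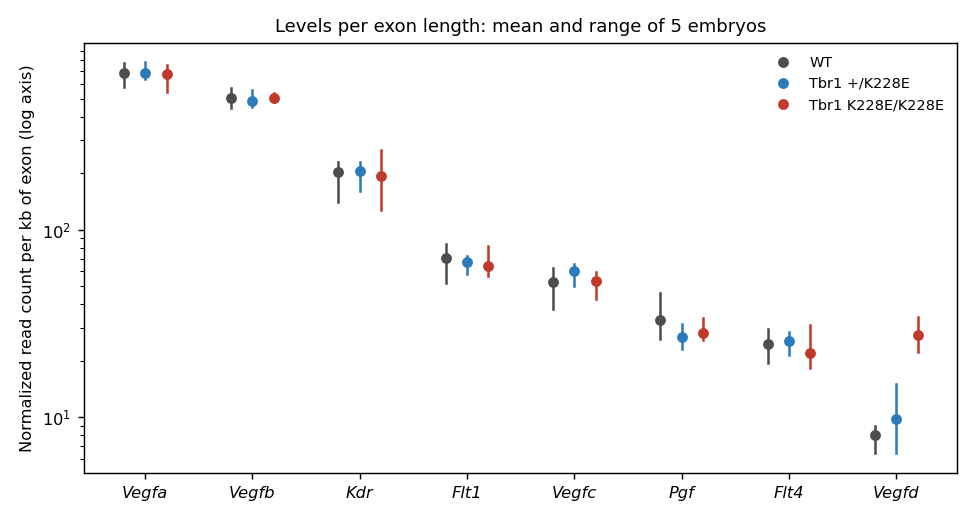
Normalized read counts per kb of merged exon (vertical log axis) for the 8 genes in their WT order (horizontal axis), with points for the mean and lines for the range of 5 embryos of each genotype. Vegfd shifts from 8.03 in WT to 27.4 in homozygotes, beside Pgf and Flt4.

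The genes around the family were taken from lists that were drawn up with earlier results of these data known. Of the neuropilin co-receptors, *Nrp1*, which binds VEGF-A, had a homozygous minus WT log2 difference of 0.12 (95% limits -0.08 and 0.32) and *Nrp2*, which binds VEGF-C, one of -0.04 (-0.19 and 0.12), and neither passed in any comparison. Among genes that process VEGF-C and VEGF-D, 9 of 10 listed were abundant enough to test, and *Plg* was not. In homozygous minus WT, 1 of the 9 passed, where 0.127% of all genes were called. Of the 9, 8 were lower and 1 higher, with a median log2 difference of -0.31. All genes tested had a median of -0.00 there, and 48.7% were higher.

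The gene that passed was *Adamts3*, the protease that activates VEGF-C. The study had already listed *Adamts3* among the most strongly lowered genes of these homozygotes, so this call is not independent of that result. The study's qRT-PCR had primers for *Adamts3*, but it bore out only *Tbr1* and *Reln*, with similar directions for the other genes. *Adamts3* measured 1517, 1679, 2082, 1201 and 1865 normalized counts in WT, 1186, 1438, 1260, 1579 and 1310 in Tbr1+/K228E, and 712, 835, 938, 847 and 754 in Tbr1 K228E/K228E. All homozygous embryos lay below all others, and the heterozygous embryos overlapped with WT. Such a separation, with the homozygotes lower, was seen in 0.273% of all genes against WT and 0.388% against heterozygotes. *Adamts3* fell by 1.01 on the log2 scale in homozygotes against WT (SE 0.13, limma with Benjamini-Hochberg adjustment, adjusted p = 0.00298), to 0.490 times the WT mean. Against heterozygotes it fell by 0.73 (SE 0.13, limma, adjusted p = 0.0460), a call that was lost without any 1 of the 10 embryos compared, with adjusted p values of 0.0624 to 0.165. In heterozygotes against WT the log2 difference was -0.28 (limma, adjusted p = 0.999, exact permutation p = 0.111).

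*Ccbe1*, the scaffold for ADAMTS3, measured 395, 394, 555, 213 and 342 normalized counts in WT, 345, 538, 399.9, 487 and 321 in Tbr1+/K228E, and 146, 63.8, 289, 200.1 and 150.2 in Tbr1 K228E/K228E. The homozygous embryos lay below all heterozygous embryos, as was so for 0.388% of all genes, but overlapped with WT through WT replicate 4. The log2 difference was -1.25 against WT (95% limits -1.94 and -0.56) and -1.43 against heterozygotes (-2.12 and -0.73), and neither passed (limma with Benjamini-Hochberg adjustment, adjusted p = 0.487 and 0.300). By the exact permutation test p was 0.0159 and 0.00794. The study's own test of these embryos, DESeq2 with an empirical null, counted *Ccbe1* among the differentially expressed genes of the homozygotes. The 2 calls come from different methods. *Svep1*, another matrix protein of lymphatic growth, ranged from 65.7 to 333 normalized counts in WT and from 34.1 to 326 in homozygotes.

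The other processing genes lay near 0 or varied widely. The homozygous minus WT log2 differences were -0.71 for *Svep1*, -0.32 for *Adamts14* and -0.31 for *Adamts2*, the latter pair being procollagen proteases related to ADAMTS3. They were -0.14 for *Pcsk5*, -0.11 for *Furin* and 0.05 for *Pcsk7*, proprotein convertases, and -0.05 for *Ctsd*, which encodes cathepsin D. None of these 7 passed in any comparison.

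**Figure D4:**
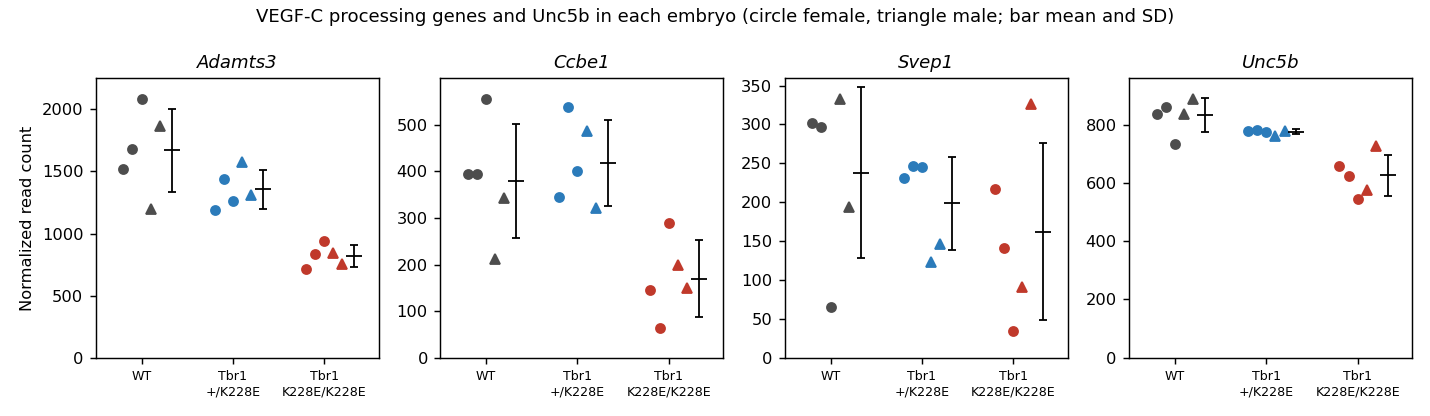
Normalized read counts (vertical axes from 0) of 3 VEGF-C processing genes and of Unc5b in each embryo by genotype (horizontal axes), with circles for females, triangles for males, and a bar for the mean and SD of 5 embryos. Adamts3 in homozygotes, at 712 to 938, lies below every other embryo, and Svep1 spreads widely in all genotypes.

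Among the listed genes of oxygen sensing, of the hypoxia response and of receptor signalling, none passed in any comparison. Of 10 oxygen-sensing genes 8 were higher and 2 lower in homozygous minus WT, with a median log2 difference of 0.02. The genes nearest to the threshold were *Vhl*, the ubiquitin ligase for hypoxia-inducible factors, with a log2 difference of 0.07, and the prolyl hydroxylase gene *Egln2*, with one of 0.05. Of 15 hypoxia target genes 6 were higher and 9 lower, with a median of -0.01, and *Ndrg1*, with a log2 difference of 0.28, and *P4ha1*, with one of -0.12, came nearest. Of 35 receptor signalling genes tested 17 were higher and 18 lower, with a median of -0.01, and *Ppp3ca*, a calcineurin subunit, and the sphingosine kinase gene *Sphk2* came nearest, each with a log2 difference of 0.08. All genes tested had a median of -0.00, and 48.7% of them were higher.

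Of 11 genes of endothelial tip cells, which lead vessel sprouts in response to VEGF, 1 passed in homozygous minus WT, where 0.127% of all genes were called. Of the 11, 9 were lower and 2 higher, with a median log2 difference of -0.09, where 48.7% of all genes were higher. *Unc5b*, a netrin receptor, measured 838, 861, 734, 837 and 888 normalized counts in WT, 779, 783, 774, 762 and 779 in Tbr1+/K228E, and 656, 625, 543, 577 and 727 in Tbr1 K228E/K228E. The homozygous embryos lay below all others, the nearest being homozygous replicate 5 at 727 and WT replicate 3 at 734. Such a separation was seen in 0.273% of all genes against WT and 0.388% against heterozygotes. *Unc5b* fell by 0.41 on the log2 scale against WT (SE 0.07, limma with Benjamini-Hochberg adjustment, adjusted p = 0.0318). It did not pass against heterozygotes (log2 difference -0.32, limma, adjusted p = 0.291). The call against WT was kept without WT replicate 3 or homozygous replicate 5 and lost without each of the other 8 embryos, with adjusted p values up to 0.117. *Unc5b* is also expressed by neurons, and cells cannot be separated here. The next gene of the list was *Mcam*, at -0.16.

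In bulk tissue, fewer cells of a type and less RNA per cell cannot be told apart, and *Kdr* and *Flt4* moved with the endothelial markers of each sample as well as with those of mural and meningeal cells. The endothelial score, the mean log2 value of 16 markers that are not in the family, ranged from 8.11 to 8.98 in WT, from 8.38 to 8.94 in heterozygotes and from 8.14 to 9.01 in homozygotes. None of the 16 passed in any comparison. Of them 14 were lower in homozygous minus WT, with a median log2 difference of -0.13, and 14 were higher in heterozygous minus WT, with a median of 0.08, where 48.8% of all genes were higher. *Ramp2* at -0.25 and *Egfl7* at -0.24 came nearest to the threshold in homozygous minus WT.

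After each genotype's mean was subtracted, deviations of the 8 genes were correlated over the 15 embryos with 5 marker scores, which made 40 relations adjusted together. Of these 16 passed, 4 each with the endothelial, mural and meningeal scores (*Vegfc*, *Flt1*, *Kdr* and *Flt4* in each), 3 with the choroid plexus score (the same genes without *Flt1*) and 1 with the midbrain and hindbrain score (*Vegfb*). *Kdr* followed the endothelial score with Pearson's r = 0.941 (permutation p = 4.0e-05, adjusted p = 0.000600) and Spearman's rho = 0.836 (permutation p = 0.00150), and r stayed at 0.908 without the 2 embryos farthest from the median score. *Flt4* gave r = 0.876 (permutation p = 5.0e-05, adjusted p = 0.000600) and rho = 0.882 (permutation p = 0.000220), and 0.870 without those 2 embryos. *Flt1* gave r = 0.683 (permutation p = 0.0120, adjusted p = 0.0320) and rho = 0.536 (permutation p = 0.0734), but 0.445 (permutation p = 0.199) without WT replicate 3 and homozygous replicate 4, so that its relation rested on those 2. *Vegfc* also followed the score, with r = 0.869 (permutation p = 0.000410, adjusted p = 0.00164).

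The relations were not particular to the endothelial score. With the score of mural cells, the pericytes and smooth muscle cells of vessel walls, Pearson's r was 0.940 for *Kdr* (permutation p = 5.0e-05, adjusted p = 0.000600, rho = 0.825 with permutation p = 0.00133), 0.862 for *Vegfc* (permutation p = 0.000650, adjusted p = 0.00236, rho = 0.700 with permutation p = 0.0128) and 0.847 for *Flt4* (permutation p = 0.00010, adjusted p = 0.000800, rho = 0.886 with permutation p = 0.00020), and without the 2 embryos farthest from the median score 0.921, 0.808 and 0.821. For *Flt1* it was 0.721 (permutation p = 0.00525, adjusted p = 0.0162, rho = 0.564 with permutation p = 0.0562), but 0.509 (permutation p = 0.128) without WT replicate 3 and homozygous replicate 4. With the choroid plexus score r was 0.911 for *Kdr* (permutation p = 0.000180, adjusted p = 0.00120, rho = 0.736 with permutation p = 0.0118), 0.810 for *Vegfc* (permutation p = 0.00221, adjusted p = 0.00737, rho = 0.829 with permutation p = 0.000990) and 0.714 for *Flt4* (permutation p = 0.0128, adjusted p = 0.0321, rho = 0.646 with permutation p = 0.0246), and without the 2 farthest embryos 0.777, 0.914 and 0.715. The meningeal score set 3 embryos apart, and over the other 12 its r was 0.822 for *Kdr*, 0.872 for *Flt4*, 0.695 for *Vegfc* and 0.285 for *Flt1*. The scores varied together between embryos, so which cells these genes moved with cannot be told apart.

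The remaining ligands did not pass with the endothelial score. Pearson's r was 0.109 for *Vegfd* (permutation p = 0.670, rho = 0.168), -0.0843 for *Vegfa* (permutation p = 0.798), 0.219 for *Vegfb* (permutation p = 0.467) and 0.395 for *Pgf* (permutation p = 0.193). These values depended on the 3 embryos set apart by the meningeal score. Without them r was 0.485 for *Vegfd*, 0.610 for *Pgf*, -0.0265 for *Vegfa* and 0.00543 for *Vegfb*. For *Vegfd* it was then 0.613 with the mural and 0.554 with the meningeal score. Values without these embryos were not tested. With the endothelial score as a covariate the homozygous minus WT log2 difference of *Vegfd* was 1.72, and the endothelial scores of the 2 genotypes overlapped. The part of endothelial content in the *Vegfd* difference was not tested.

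**Figure D5:**
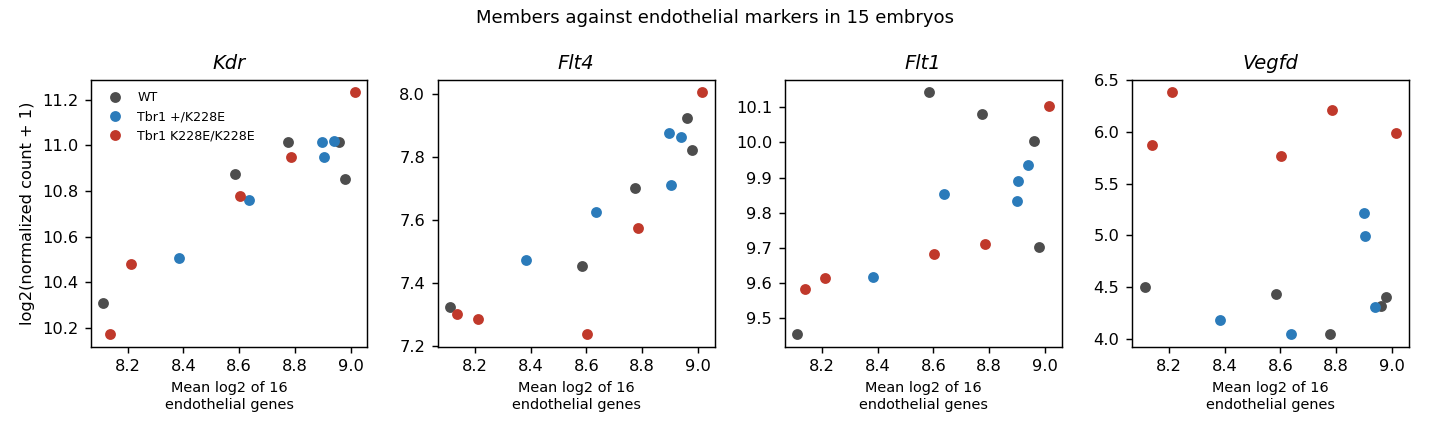
log2(normalized count + 1) of the 3 receptors and Vegfd (vertical axes) against the mean log2 value of 16 endothelial genes (horizontal axes), with 1 point per embryo coloured by genotype. Kdr and Flt4 rise with the score in all genotypes, and the 5 homozygous points of Vegfd lie above all the others.

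Markers of other tissue compartments varied between embryos more than between genotypes. The meningeal fibroblast score of 13 genes was lowest in WT replicate 3 at 4.61 and in homozygous replicates 4 and 3 at 5.12 and 5.27, against 7.46 to 9.78 in the other 12 embryos. The summed level of these genes ranged from 641 to 34898 normalized counts in WT, from 4857 to 20213 in heterozygotes and from 828 to 23610 in homozygotes. Without those 3 embryos the *Vegfd* difference for homozygous minus WT was 1.69 and that of *Adamts3* was -1.01 (limma, adjusted p = 0.0312), while *Unc5b* no longer passed (-0.36, adjusted p = 0.107). Over the whole list 11 of 13 genes were lower in homozygous minus WT, where 48.7% of all genes were higher. The median log2 difference of the list was -0.76, none passed, and *Col1a1* at -1.96 and *Foxc1* at -0.57 came nearest. The part of meningeal content in the results was not tested.

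A score of 14 midbrain and hindbrain genes, mostly *Hox* genes, fell into 2 clusters. It lay between 4.56 and 7.92 in 6 embryos, WT replicates 1, 2 and 4, heterozygous replicate 1 and homozygous replicates 1 and 2, and between 0.34 and 2.81 in the other 9. The forebrain markers were abundant in all embryos, with a summed level of 135571 to 173210 normalized counts. *Hox* genes are active in the hindbrain and spinal cord and not in the forebrain. The summed level of the 14 genes overlapped between the clusters. It ran from 10.2 in heterozygous replicate 2 to 1604 in heterozygous replicate 5 among the 9 of low score. Among the 6 of high score it ran from 1542 in homozygous replicate 1 to 5154 in WT replicate 4. A low score therefore does not show that midbrain and hindbrain tissue was absent. *Vegfb* stood at 792 to 912 normalized counts in the 6 embryos of high score, with a median of 854, and at 719 to 827 in the other 9, with a median of 756. With genotype means subtracted, *Vegfb* and this score gave Pearson's r = 0.945 over the 15 embryos (permutation p = 0.000210, adjusted p = 0.00120). Spearman's rho was 0.936 (permutation p = 0.000190), and r was 0.872 without the 2 embryos farthest from the median score. The embryos were split on this same score after it was seen, so values within the clusters are a description, with no test. Without subtraction of genotype means, r of the log2 level and the score was 0.858 within the 6 (rho = 0.829). Within the 9 r was 0.733 (rho = 0.400). *Vegfd* in homozygotes was 73.3 and 53.4 normalized counts in the 2 embryos of high score and 57.6 to 82.7 in the 3 of low score.

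The other marker lists gave no gene past the threshold in any comparison. Of the mural cell markers 11 of 12 were lower in homozygous minus WT, where 48.7% of all genes were higher. *Cspg4* at -0.16 and *Anpep* at -0.87 were nearest to the threshold. Of the lymphatic markers 3 of 4 could be tested, with *Lyve1* at -0.65 and *Pdpn* at -0.02 nearest to the threshold. Choroid plexus markers had a median log2 difference of -0.09, led by *Kcnj13* at -0.53 and *Aqp1* at -0.38. Microglial markers had one of -0.11, led by *C1qa* at -0.35 and *Csf1r* at -0.29, and blood markers one of -0.10, with *Hba-a1* at -0.13. Forebrain markers had one of 0.08, led by *Emx2* at 0.12 and *Tubb3* at 0.06. The midbrain and hindbrain genes had one of -1.52, led by *Hoxd4* at -1.86 and *Hoxb4* at -2.17. The part of these cells in the VEGF results was not tested.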

How the data were processed

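Brains of 15 E16.5 embryos were profiled by RNA-Seq. The deposited table holds normalized read counts (a signal scale, not whole counts), which the authors made with Salmon 0.11.2 against GRCm38 transcripts, tximport and DESeq2 1.22.2 size factors in R 3.5.3. The values cannot be returned to whole reads, since only 42.6% to 70.4% of low values were whole multiples of 1 read within 0.05, so no count test was run.

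Of 19475 genes, 19469 were matched to GENCODE M21 for symbols and exon lengths. The 16507 genes averaging 5 or more were tested as log2(value + 1) in limma 3.58.1 (R 4.3.3, trended variance), with all 15 embryos in 1 fit, Benjamini-Hochberg adjustment and a threshold of 0.05, and checked on simulated data. Exact two-sided permutation tests compared single genes, and relations to marker scores used 100000 permutations within genotypes (Python 3.11.15). The tests treat the embryos as independent, which could not be checked, since nothing states whether embryos shared a litter. Sequences are from RefSeq (GRCm38.p6).

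The 8 genes, the lists and the tests were chosen with earlier results of these data known. Named were all 8 genes, all co-receptor and processing genes and, of every other list, genes past the threshold plus the 2 of smallest p in homozygous minus WT, except for genes not reported here. Alternatives covered the pseudocount, filter, scaling, sex, replicate block, covariate scores, 2-genotype fits, an empirical null, exon length and leaving out embryos.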

Additional observations from a re-analysis of the deposited data

Results flagged for a closer look

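Dixon's ratio was computed for each of the 8 genes in each genotype, 24 groups of 5 embryos, of which chance marks about 1 in 20, and 5 groups held an embryo far from the others. *Vegfa* was high in heterozygous replicate 2, at 3346 normalized counts against 2880 in the nearest embryo. *Vegfb* was high in heterozygous replicate 1, at 892 against 762, and this embryo had the highest midbrain and hindbrain score of its genotype. *Pgf* was high in homozygous replicate 3, at 98.1 against 81.1. *Flt1* was high in homozygous replicate 5, at 1099 against 838, in the embryo with the highest endothelial score of its genotype. *Kdr* was low in WT replicate 3, at 1267 against 1848, in the embryo with the lowest endothelial and meningeal scores of its genotype. No *Vegfd* value stood apart within its genotype by this measure.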

How the results depend on the processing

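None of the 7 tested VEGF genes passed the threshold under any alternative. *Vegfd* was excluded by the filter on a mean of at least 50 and otherwise kept its direction, with log2 differences for homozygous minus WT of 1.36 (pseudocount of 10) to 1.77 (quantile normalization), and of 1.62 to 1.78 leaving out 1 embryo. By the exact test 0 of the 7 passed, 2 with quantile normalization (*Vegfc* and *Pgf* in heterozygotes), and 0 to 2 leaving out 1 embryo. Replicate numbers, which follow sex, were not taken to pair the embryos, since the labels give no shared litter or batch and not every pair correlated at over 0.1. For homozygous against WT all 5 correlations were positive and 4 were over 0.1 (0.02 to 0.51), which leaves some shared deviation possible, and they were -0.21 to 0.22 for heterozygous against WT and -0.23 to 0.35 for homozygous against heterozygous. With the replicate block 16 genes instead of 21 were called in homozygous minus WT and 2 instead of 13 in homozygous minus heterozygous, and *Adamts3* in the latter had an adjusted p of 0.0996. Over the alternatives that left out no embryo of the genotypes compared, 12 to 42 genes were called in homozygous minus WT, the extremes being the 2-genotype fit and the empirical null, and 7 without the 3 embryos of low meningeal score, an alternative chosen after seeing the data.

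Listed genes past the threshold in homozygous minus WT numbered 2, and 1 with the upper quartile (*Unc5b* adjusted p = 0.0561), the 2-genotype fit (0.271) or without those 3 embryos, and 1 to 2 leaving out 1. In homozygous minus heterozygous there was 1, and 0 with sex as a covariate (*Adamts3* adjusted p = 0.0629), with the replicate block, without the 3 embryos (0.0558) or leaving out any 1. With the longest transcript as length, means over 15 embryos per kb moved to 842 for *Vegfa*, 623 for *Vegfb*, 40.9 for *Pgf*, 132 for *Flt1*, 306 for *Kdr* and 31.6 for *Flt4*.

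Directions turned only among differences that never passed, and the cause was not tested. With the meningeal and hindbrain scores as covariates, homozygous minus WT became 0.036 for *Ctsd* and 0.013 for *Kdr*. Heterozygous minus WT became -0.066 for *Flt4*, -0.085 for *Kdr*, -0.052 for *Nrp1*, -0.052 for *Vegfa* and 0.020 for *Vegfb*. Homozygous minus heterozygous became 0.10 for *Adamts14*, 0.046 for *Ctsd*, 0.029 for *Flt1*, 0.014 for *Furin* and 0.098 for *Kdr*. With the endothelial score as a covariate, homozygous minus WT became 0.0055 for *Ctsd* and 0.029 for *Kdr*. Heterozygous minus WT became -0.027 for *Kdr*. Homozygous minus heterozygous became 0.062 for *Adamts14*, 0.053 for *Ctsd*, 0.0058 for *Flt1*, 0.0099 for *Furin*, 0.056 for *Kdr* and -0.0092 for *Pcsk7*. Without the 3 embryos, homozygous minus WT became 0.0093 for *Ctsd*, 0.048 for *Kdr* and -0.0089 for *Vegfb*. Heterozygous minus WT became -0.016 for *Flt4* and -0.089 for *Kdr*. Homozygous minus heterozygous became 0.031 for *Adamts14*, 0.096 for *Ctsd*, 0.0076 for *Flt1*, 0.14 for *Kdr*, -0.0094 for *Pcsk7* and 0.18 for *Svep1*.

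Leaving out 1 embryo, homozygous minus WT ranged from -0.038 to 0.048 for *Vegfb*, -0.074 to 0.12 for *Vegfc*, -0.082 to 0.053 for *Vegfa*, -0.12 to 0.012 for *Ctsd* and -0.22 to 0.048 for *Kdr*. Heterozygous minus WT ranged from -0.086 to 0.030 for *Ctsd*, -0.047 to 0.073 for *Nrp1*, -0.53 to 0.050 for *Svep1*, -0.059 to 0.050 for *Vegfa*, -0.38 to 0.0055 for *Adamts14*, -0.016 to 0.13 for *Flt4*, -0.089 to 0.12 for *Kdr*, -0.015 to 0.33 for *Ccbe1* and -0.16 to 0.015 for *Flt1*. Homozygous minus heterozygous ranged from -0.082 to 0.029 for *Ctsd*, -0.017 to 0.043 for *Pcsk7*, -0.048 to 0.041 for *Nrp2*, -0.065 to 0.052 for *Vegfa*, -0.099 to 0.0045 for *Furin* and -0.26 to 0.011 for *Kdr*.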

Other observations

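The genes whose deviations from their genotype means were most like those of *Vegfd*, *Vegfa* and *Kdr* over the 15 embryos were listed among 13541 genes with a mean of at least 50 normalized counts. For *Vegfd* these included *Lamtor5* (Pearson's r = 0.858), *Ifih1* (0.839), *Myd88* (0.808) and *Ebpl* (0.807). For *Vegfa* they were *Mccc1* (0.864), *Dynlt1c* (0.858), *Lpin2* (0.853), *Snapc4* (0.853) and *Gm14326* (0.851). For *Kdr* they were *Ahnak* (0.974), *Ifitm2* (0.969), *Trabd2b* (0.969), *Cped1* (0.969) and *Cyp1b1* (0.966). These are among the highest of 13541 values each, and all points share library and scaling, so they are a description.

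Among the homozygous embryos the order of *Vegfd* from high to low, replicates 3, 1, 5, 4 and 2, was also the order of *Tbr1*. Over all 15 embryos, with genotype means subtracted, Pearson's r between the 2 genes was 0.393 (permutation p = 0.132) and Spearman's rho 0.368 (permutation p = 0.185), and r was 0.436 without the 2 embryos farthest from the median. The relation was looked at after the values were seen and did not pass the threshold.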
